A study of Mus musculus with 24 samples.

Results

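Genes that answer to metal ions or to oxidants, 10 in number, were followed across mouse kidneys with congenital hydronephrosis. They were chosen by name: the metallothionein genes Mt1 and Mt2, the zinc exporter Slc30a1, the transcription factor gene Nfe2l2, which encodes Nrf2, and 6 genes commonly assigned to Nrf2 (Hmox1, Nqo1, Gclc, Gclm, Txnrd1 and Srxn1). All 10 of these 10 genes had at least 1 probe and passed the filter on dim probes, among 27984 genes tested in all. Total RNA of 24 whole kidneys of young male mice was hybridized in a single colour to Agilent mouse arrays, 1 kidney per array. Age-matched kidneys of genotype mgb+/+ were the controls (6 kidneys), and 18 kidneys of genotype mgb-/- were graded by ultrasound as mild (7 kidneys), moderate (5 kidneys) or severe (6 kidneys) hydronephrosis. The megabladder (mgb) mutation leaves the bladder without normal muscle, so that urine backs up into the kidneys; the grade follows how much parenchyma is preserved, and it was not manipulated. Whether some mice gave 2 kidneys is not stated, so the p-values measure the spread between kidneys, which may partly be spread within a mouse. All tests, the permutation tests included, treat the kidneys as independent. If kidneys shared a mouse, the p-values could be too small.

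Metallothioneins are small, cysteine-rich proteins that hold zinc and copper. The factor Mtf1 senses free zinc and binds metal response elements (MREs) in the promoters of Mt1, Mt2 and Slc30a1, and metallothionein genes also answer to glucocorticoids and inflammatory signals. Nrf2 is kept low by Keap1, which hands it to the Cul3 ubiquitin ligase; oxidants and electrophiles release it, and together with a small Maf protein it binds antioxidant response elements (AREs) of genes for quinone, glutathione, thioredoxin and heme metabolism. In the kidney, glutathione is made and recycled above all in the proximal tubule.

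The promoter sequences are shown because Mt1 and Mt2 were tightly correlated across kidneys while Slc30a1, which is taught as a target of the same factor, passed no correlation test with either. RefSeq (build GRCm38.p6) gave windows of 300 bases, 250 before and 50 after an annotated start, for 8 of the 10 genes. Hmox1 and Gclc had no window. Both strands were searched for the MRE cores TGCACNC and TGCGCNC and for the ARE core TGACNNNGC. Of 32851 windows in the whole table, 25.7% held at least 1 MRE core, 1.97% at least 3 and 0.517% at least 4, while 12.4% held at least 1 ARE core. The Mt2 window held 4 MRE cores and the Mt1 window held 3. The windows of Gclm, Slc30a1 and Srxn1 held 3, 2 and 1. In Mt1 a core began 23 bases before the annotated start, and the others began at bases 3 and 21 after it. In Mt2 the cores began 223, 128 and 50 bases before the start and at base 5 after it. A match is a description of letters and does not show a bound site. Whether an annotated start is the one used in these kidneys was not checked. The counts and positions of cores hold for the windows around that start only. In the stretches below, read 5′ to 3′ on the strand of the gene, capitals mark the MRE cores. Of the 2 cores of Slc30a1 the other lies past the printed stretch.
Mt1, chr8:94179051-94179118, plus strand: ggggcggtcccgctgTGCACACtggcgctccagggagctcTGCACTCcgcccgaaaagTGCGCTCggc
Mt2, chr8:94172380-94172643, plus strand: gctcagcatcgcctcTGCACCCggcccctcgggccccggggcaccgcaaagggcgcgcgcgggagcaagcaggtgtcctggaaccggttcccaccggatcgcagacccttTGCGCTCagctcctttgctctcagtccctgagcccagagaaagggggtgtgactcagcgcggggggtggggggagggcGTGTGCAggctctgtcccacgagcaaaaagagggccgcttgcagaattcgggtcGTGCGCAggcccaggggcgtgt
Slc30a1, chr1:191906723-191906759, plus strand: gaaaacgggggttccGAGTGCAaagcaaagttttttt

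ARE cores were found once each in the windows of Mt2, Slc30a1, Gclm, Srxn1 and Nfe2l2, and in 1 of the 3 windows of Txnrd1. The Nqo1 and Mt1 windows held none. Bases outside the windows were not searched, so this does not show that these genes lack an ARE core. In the Gclm window an ARE core overlapped an MRE core. In the next stretches capitals mark the ARE cores; they are shown for genes whose correlations below have opposite signs.
Mt2, chr8:94172524-94172562, plus strand: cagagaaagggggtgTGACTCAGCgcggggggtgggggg
Gclm, chr3:122245408-122245446, plus strand: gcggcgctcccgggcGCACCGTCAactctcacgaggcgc
Nfe2l2, chr2:75704880-75704913, minus strand: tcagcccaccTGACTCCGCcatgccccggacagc

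The array of each kidney was scaled by its own 75th percentile, so a log2 level of 0 is the brightness of that percentile. Between 55.6% and 70.8% of the probes stood well above background on an array, no spot was saturated, and the probes of all 10 genes stood well above background on all 24 arrays. The arrays lay on 3 slides of 8, and each slide carried 2 control and 6 mgb-/- kidneys. The tested markers of the proximal tubule (7 of 7 listed), thick limb and distal tubule (6 of 6), collecting duct (4 of 5) and podocyte (4 of 4) were well above background on all arrays. A pair of kidneys stood apart by adrenal markers (Star, Cyp11b1, Cyp21a1 and Th, of which 2 of 4 were well above background on all arrays): their summed linear level, where 1 is the 75th percentile, was 189.0 in mild replicate 4 and 190.3 in moderate replicate 1, and at most 4.48 in each other kidney. In severe replicate 5 the summed level of 7 proximal tubule markers was 259.2, the lowest of all kidneys, against 912.4 to 1093 in the controls. Where leaving out these 3 kidneys changed a call for the 10 genes, the value without them is given beside it. Fewer cells of a type and less RNA per cell cannot be told apart in whole-kidney RNA.

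Nqo1 and Mt1 rose and Gclm fell when all 18 mgb-/- kidneys were compared with the 6 controls. These 3 of 10 genes passed an adjusted p under 0.05 in limma, beside 13.3% of all genes. By direction, 2 were higher, beside 5.34% of all genes, and 1 was lower, beside 8% of all genes. None of the 3 reached a 2-fold change; with 2-fold also required and the brightest probe standing for each gene, 0 of 10 genes passed in this comparison (beside 3.08% of all genes) and in the mild (beside 2.2%), moderate (beside 0.725%) and severe kidneys (beside 4.71%). With the mean of its probes in place of the brightest, the Mt1 change was 1.36 on the log2 scale (adjusted p = 0.00208), past 2-fold. The median log2 change over the 10 genes was 0.30, and over all genes tested it was 0.01. The Mt2 difference was larger in size, 1.10 on the log2 scale, but with more spread, and it did not pass (adjusted p = 0.0590). Scaling by the array median in place of the 75th percentile moved the median of all genes to -0.15. Relative to it the differences were 0.77 for Mt1, 0.90 for Nqo1 and -0.51 for Gclm, as they were relative to 0.01. Each of these scalings subtracts 1 number per array, so this match is arithmetic and is no check of the changes. Under scaling by the array median the split of calls was 1 higher and 1 lower. It was 5 and 1 after quantile normalization and 6 and 1 in the deposited table of the authors.

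**Figure D1:**
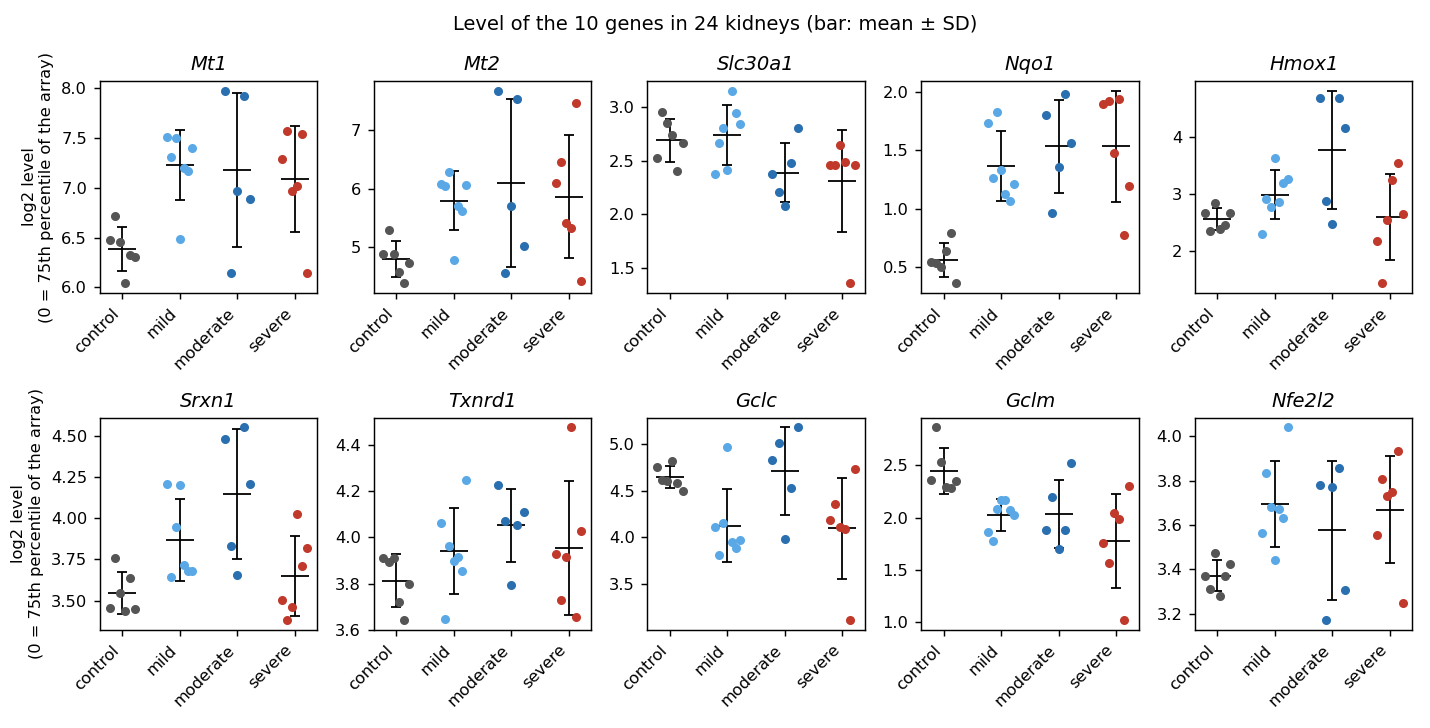
Log2 level of the 10 genes (0 is the 75th percentile of the array) in each of 24 kidneys, in panels by gene and in columns by grade, with the mean and SD of each group. Nqo1 lies above the highest control in 17 of 18 mgb-/- kidneys, while Mt1, Mt2 and Hmox1 spread widely within the moderate and severe groups.

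Mt1 encodes metallothionein 1. In the control kidneys its log2 level was between 6.04 and 6.72 (median 6.39, n = 6). In the mild kidneys it was between 6.49 and 7.51 (median 7.31, n = 7), and 6 of the 7 lay above the highest control. In the moderate kidneys the levels were 7.98, 6.15, 6.97, 7.92 and 6.89, and in the severe kidneys they ran from 6.14 to 7.58 (median 7.15, n = 6). Thus 15 of 18 mgb-/- kidneys exceeded every control, and mild replicate 4, moderate replicate 2 and severe replicate 6 lay inside the control range. Mt1 rose by 0.78 on the log2 scale (SE 0.22, a fold of 1.72, limma adjusted p = 0.0207), and 16 of 18 kidneys were above the control mean. Within the 3 slides the difference was 1.22, 0.49 and 0.63. The call was lost without control replicate 4 (adjusted p = 0.0588) and under scaling by the array median (adjusted p = 0.0872).

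Mt2 encodes metallothionein 2, which binds the same metals. Its control levels ran from 4.38 to 5.30 (median 4.81). The mild kidneys ran from 4.79 to 6.28 (median 6.04). The moderate kidneys had levels of 7.67, 4.56, 5.71, 7.53 and 5.02, and the severe kidneys ran from 4.43 to 7.46 (median 5.76). Moderate replicates 1 and 4 and severe replicate 5 were the highest, while mild replicate 4, moderate replicates 2 and 5 and severe replicate 6 stayed inside the control range. The log2 change of 1.10 (SE 0.39, 95% confidence interval 0.31 to 1.90) did not pass in the fit with all kidneys, and it passed when mild replicate 4 (adjusted p = 0.0438), moderate replicate 2 (0.0343), moderate replicate 5 (0.0434) or severe replicate 6 (0.0300) was left out. It also passed without the pair of kidneys with adrenal markers and severe replicate 5 together (0.96, adjusted p = 0.0484). The SD was 1.43 in the moderate and 1.05 in the severe kidneys against 0.31 in the controls. The highest sums of 6 fibroblast and smooth muscle markers were in the same kidneys as the highest Mt2 levels: 211.0 in severe replicate 5, 146.6 in moderate replicate 4 and 112.4 in moderate replicate 1. Next came moderate replicate 3, with a sum of 111.5 and an Mt2 level of 5.71. Moderate replicate 2 had a sum of 100.7, but its Mt2 level of 4.56 lay inside the control range. These sums ran from 44.6 to 55.2 in the controls, 52.6 to 76.8 in the mild, 29.9 to 146.6 in the moderate and 37.0 to 211.0 in the severe kidneys. Of the 6 markers 5 were well above background on all arrays, and Acta2 (1.20) and Dcn (0.66) rose over all mgb-/- kidneys. Their part in the Mt1 and Mt2 levels was not tested.

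The array carried a second probe for Mt1. The first (A_66_P111660) is tied to the RefSeq transcript. The second (A_52_P423810) is tied to an Ensembl transcript that only the supplementary gene list of the study pairs with Mt1. That pairing was not checked against sequence here. The supplementary gene lists hold genes that the study called changed between groups of these same arrays. The second probe could be named this way only after such a call, so its rise below is a selected result and no independent test. On the second probe the control levels ran from -2.09 to -0.48 and the mgb-/- levels from -0.43 to 2.05, so all 18 mgb-/- kidneys lay above all 6 controls. In the fit over 38866 probes the second probe rose by 1.94 (SE 0.33, adjusted p = 0.00123) and the first by 0.78 (SE 0.22, adjusted p = 0.0227). By grade the second probe rose by 1.94 in the mild (adjusted p = 0.00777), 2.15 in the moderate (adjusted p = 0.0226) and 1.77 in the severe kidneys (adjusted p = 0.0100). It thus passed in each grade, where the first probe did not.

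The gap between the Mt1 probes was tested on its own. Within each array the second probe minus the first was on average -7.65 ± 0.43 (SD, n = 6) in the controls and -6.49 ± 0.55 (SD, n = 18) in the mgb-/- kidneys. The probes therefore differed in their change by 1.16 on the log2 scale, a ratio of 2.23 between their fold changes (exact two-sided permutation test over kidneys, p = 8.92e-05). The same difference was 1.10 in the mild, 1.36 in the moderate and 1.06 in the severe kidneys (exact permutation test, p adjusted over the 4 comparisons 0.00311, 0.00311 and 0.00433). Within the 18 mgb-/- kidneys the probes correlated with r = 0.69 (permutation p = 0.00178) and rho = 0.67 (permutation p = 0.0027), and with r = 0.71 without the 2 kidneys farthest from the median. Moderate replicate 2 and severe replicate 6, which lay in the control range on the first probe, read 0.40 and -0.43 on the second, above all controls. What the second probe binds besides Mt1 was not tested. Because it was named from a list of genes called changed in these arrays, the permutation p-values of the gap describe a selected probe.

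**Figure D2:**
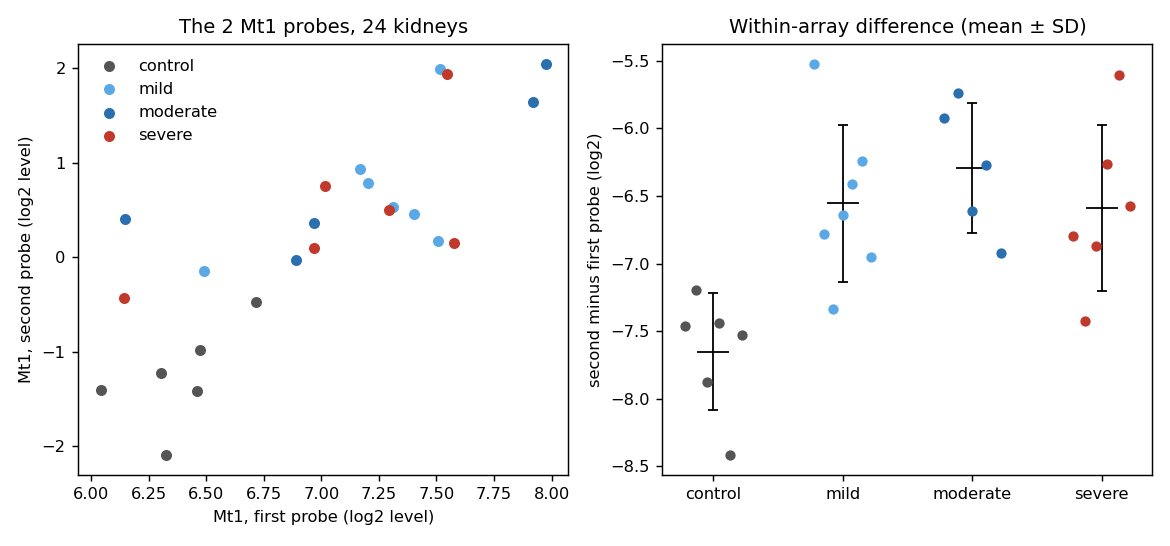
Left, log2 level of the second Mt1 probe against that of the first in 24 kidneys, coloured by grade. Right, the difference between the probes within each array, with mean and SD by group: the controls average -7.65 and the mgb-/- kidneys -6.49.

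Slc30a1 encodes ZnT1, which moves zinc out of the cell. Its control levels ran from 2.40 to 2.95. The mild kidneys ran from 2.37 to 3.15 and the moderate from 2.08 to 2.80. The severe kidneys lay between 2.46 and 2.65 except severe replicate 5, at 1.36. The groups overlapped, and the log2 change against control was -0.19 (95% confidence interval -0.53 to 0.16, adjusted p = 0.489). Over the 18 mgb-/- kidneys Slc30a1 had an r of -0.004 with Mt1 (permutation p adjusted over 45 pairs = 0.993) and of -0.29 with Mt2 (adjusted p = 0.442).

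Mt1 and Mt2 were the most tightly correlated pair among the 10 genes, with r = 0.93 and rho = 0.96 over the 18 mgb-/- kidneys (both permutation p adjusted over 45 pairs = 0.00045, the smallest they can give). The r was 0.93 without the 2 kidneys farthest from the Mt1 median, and 0.96, 0.87 and 0.96 within the 3 slides. Both also went with Nfe2l2: r was 0.77 for Mt1 (adjusted p = 0.0033) and 0.73 for Mt2 (adjusted p = 0.00641). Without the 2 farthest kidneys these were 0.54 (adjusted p = 0.150) and 0.77 (adjusted p = 0.00585), and within the slides 0.59, 0.90 and 0.73 for Mt1 and 0.54, 0.87 and 0.67 for Mt2. Gclm ran the other way, with r = -0.68 to Mt2 (adjusted p = 0.0105) and -0.64 to Nfe2l2 (adjusted p = 0.0217). Without the 2 farthest kidneys these were -0.83 (adjusted p = 0.00225) and -0.56 (adjusted p = 0.142), so that the pair with Nfe2l2 no longer passed, and within the slides -0.49, -0.92 and -0.61 for Mt2 and -0.28, -0.76 and -0.65 for Nfe2l2.

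Nfe2l2 mRNA itself was tightly grouped in the controls, from 3.28 to 3.47. The mild kidneys ran from 3.44 to 4.04, the moderate from 3.17 to 3.86 and the severe from 3.25 to 3.93. Of 18 mgb-/- kidneys 14 lay above the highest control, and moderate replicate 2 and severe replicate 6 lay below the lowest. The log2 change was 0.28 (SE 0.10, a fold of 1.22, adjusted p = 0.0725), which did not pass. It passed without moderate replicate 2 (adjusted p = 0.0297), moderate replicate 5 (0.0424) or severe replicate 6 (0.0366). The mRNA level does not report the amount of Nrf2 protein, which is set largely by its breakdown.

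Nqo1 encodes a quinone reductase and is widely used as a readout of Nrf2. The control levels were 0.55, 0.54, 0.50, 0.64, 0.79 and 0.36. The mild kidneys ran from 1.07 to 1.83 and the moderate from 0.96 to 1.98, so neither grade overlapped the controls. The severe levels were 1.90, 1.92, 1.48, 1.94, 0.78 and 1.20, and severe replicate 5, at 0.78, was the only mgb-/- kidney inside the control range. Nqo1 rose by 0.91 on the log2 scale (SE 0.16, a fold of 1.87, limma adjusted p = 0.00147). All 18 kidneys exceeded the mean of the controls. The difference was 1.07, 0.53 and 1.12 within the 3 slides. The call held under all 10 other settings tried for this comparison and in all 24 fits that left out 1 kidney, with adjusted p from 9.49e-06 to 0.0113.

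Gclc and Gclm encode the catalytic and the modifier subunit of glutamate-cysteine ligase, the first enzyme of glutathione synthesis. Both are taught as Nrf2 targets. For Gclm the controls ran from 2.28 to 2.86 (median 2.36), the mild kidneys from 1.78 to 2.17, the moderate from 1.70 to 2.52 and the severe from 1.02 to 2.30. Of 18 mgb-/- kidneys 16 lay below the lowest control, including all 7 mild kidneys. Gclm fell by 0.50 on the log2 scale (SE 0.14, a fold of 1.42, adjusted p = 0.0257). The call was lost without control replicate 2 (adjusted p = 0.0802) or control replicate 3 (adjusted p = 0.0663).

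For Gclc the controls ran from 4.50 to 4.82 (median 4.61), and the mgb-/- kidneys fell on both sides. Of 18, 12 lay below the lowest control and 4 above the highest: mild replicate 4 at 4.97 and moderate replicates 1, 2 and 5 at 4.84, 5.01 and 5.18. The log2 change was -0.37 (SE 0.21, adjusted p = 0.258). In the mild kidneys it was -0.52 (adjusted p = 0.170), and it passed there without the pair of kidneys with adrenal markers and severe replicate 5 (-0.66, adjusted p = 0.0140). Gclc and Gclm correlated over the mgb-/- kidneys (r = 0.70, adjusted p = 0.0105), but rho was 0.46 (adjusted p = 0.209). Without the 2 kidneys farthest from the Gclc median r dropped to 0.33 and no longer passed (permutation adjusted p = 0.479). With the mean of each slide subtracted r was 0.76 (permutation adjusted p = 0.0027). For Slc30a1 and Gclm r was 0.71 (adjusted p = 0.0200), and 0.35 without the 2 farthest. Severe replicate 5 had the lowest level of Slc30a1 (1.36), Gclc (3.11) and Gclm (1.02), and its proximal tubule markers were also the lowest. Over the groups the summed proximal tubule level ranged from 912.4 to 1093 in the controls, 740 to 931.4 in the mild, 636.4 to 1219 in the moderate and 259.2 to 1002 in the severe kidneys. Of its 7 genes 0 passed in mgb-/- against control kidneys (beside 13.3% of all genes) and 1 fell in the severe kidneys (beside 9.55%). The part of these markers in the Gclm and Gclc levels was not tested. Without severe replicate 5 and the pair of kidneys with adrenal markers the Gclm change was -0.45 (adjusted p = 0.0181), and without that pair alone it was -0.51 (adjusted p = 0.0334).

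Hmox1 encodes the inducible heme oxygenase, which opens the heme ring and frees its iron. Its control levels ran from 2.35 to 2.84. The mild kidneys ran from 2.29 to 3.64. The moderate levels were 4.70, 2.88, 2.47, 4.70 and 4.17, and the severe levels ran from 1.42 to 3.55. Of 5 moderate kidneys 3 were thus above every kidney of the other groups, while 2 severe kidneys were below the lowest control. The change over the whole mgb-/- group was 0.52 on the log2 scale (SE 0.34, adjusted p = 0.332). For the moderate kidneys it was 1.23 (95% confidence interval 0.43 to 2.02, adjusted p = 0.0998), and for the severe kidneys 0.04 (adjusted p = 0.955). The other Hmox1 probe gave 1.02 and -0.08 for the same comparisons, and it correlated with the first at r = 0.98 over the mgb-/- kidneys (permutation p = 1e-05, the smallest that can be given).

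Adrenal markers summed to 190.3 in moderate replicate 1 and to 0.53 in moderate replicate 4, the kidneys with an Hmox1 level of 4.70. Without the pair of kidneys with adrenal markers the moderate change in Hmox1 was 1.00 (adjusted p = 0.318). Summed macrophage markers (6 of 7 listed genes, all well above background on all arrays) were 32.6 to 54.3 in the moderate kidneys and 31.15 to 46.0 in the controls. Summed erythroid markers (4 of 5 listed genes) were 388.7 to 691.6 in the moderate kidneys, 348.5 to 1093 in the severe kidneys and 146.3 to 676.6 in the controls. Their part in the Hmox1 level was not tested.

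Srxn1 and Txnrd1 serve the thioredoxin system: sulfiredoxin repairs over-oxidized peroxiredoxins, and thioredoxin reductase 1 recycles thioredoxin. Srxn1 ran from 3.44 to 3.76 in the controls, 3.64 to 4.21 in the mild, 3.65 to 4.55 in the moderate and 3.38 to 4.02 in the severe kidneys. Its highest levels, 4.48 and 4.55, were in moderate replicates 1 and 4, the same kidneys that had the highest Hmox1. Srxn1 changed by 0.33 (SE 0.14, adjusted p = 0.134) and Txnrd1 by 0.16 (SE 0.10, adjusted p = 0.280), and neither passed. Txnrd1 ran from 3.64 to 3.91 in the controls and from 3.65 to 4.48 in the mgb-/- kidneys, of which 12 of 18 lay above the highest control. Under scaling by the array median the Txnrd1 change was 0.0075, and 0.15 relative to the median of all genes there. After quantile normalization Txnrd1 (0.29, limma adjusted p = 0.0467) and Srxn1 (0.45, adjusted p = 0.0298) passed. Both also passed in the authors' table (adjusted p = 0.0122 and 0.0246), and Srxn1 with array quality weights (adjusted p = 0.0429). Of 10 other settings 8 for Txnrd1 and 7 for Srxn1 did not pass, nor did any of the 24 fits that left out 1 kidney.

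Hmox1 and Srxn1 varied together over the 18 mgb-/- kidneys (r = 0.78, permutation p adjusted over 45 pairs = 0.0027; rho = 0.65, adjusted p = 0.0335). The r was 0.82, 0.85 and 0.67 within the 3 slides and 0.58 without the 2 farthest kidneys (adjusted p = 0.105), where it no longer passed. Without the pair of kidneys with adrenal markers it was 0.71 (adjusted p = 0.0177). The grades were pooled, and both genes averaged highest in the moderate kidneys. Hmox1 averaged 2.99, 3.78 and 2.60 in the mild, moderate and severe kidneys, and Srxn1 averaged 3.87, 4.14 and 3.65. Grade means were not subtracted for any pair, so part of an r may be a difference between grades. With Nqo1 the r was -0.0025 for Hmox1 (adjusted p = 0.993) and 0.34 for Srxn1 (adjusted p = 0.380), and neither passed. Of the 45 pairs, 9 passed by Pearson's r, 6 positive and 3 negative, and 7 by Spearman's rho, with 6 in common. Nfe2l2 correlated with Gclc at -0.69 (adjusted p = 0.0105), the third negative pair, which passed neither by rho (-0.56, adjusted p = 0.0839) nor without the 2 farthest kidneys (-0.59, adjusted p = 0.105). Without the 2 farthest kidneys 5 pairs passed. With the mean of each slide subtracted 11 pairs passed. Among them were Gclc with Mt1 (-0.60, permutation adjusted p = 0.0395) and with Mt2 (-0.58, adjusted p = 0.0470), which did not pass with the slide means kept. Without the pair of kidneys with adrenal markers 9 pairs passed, Mt1 and Mt2 with r = 0.91 (adjusted p = 0.0009). Without severe replicate 5 as well 5 pairs passed: Mt1 with Mt2, both with Nfe2l2, Hmox1 with Srxn1, and Gclc with Nfe2l2. The pairs of Gclm with Mt2 (-0.63, adjusted p = 0.0867), Nfe2l2 (-0.61, adjusted p = 0.0867), Gclc (0.57, adjusted p = 0.126) and Slc30a1 (0.42, adjusted p = 0.306) then did not.

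**Figure D3:**
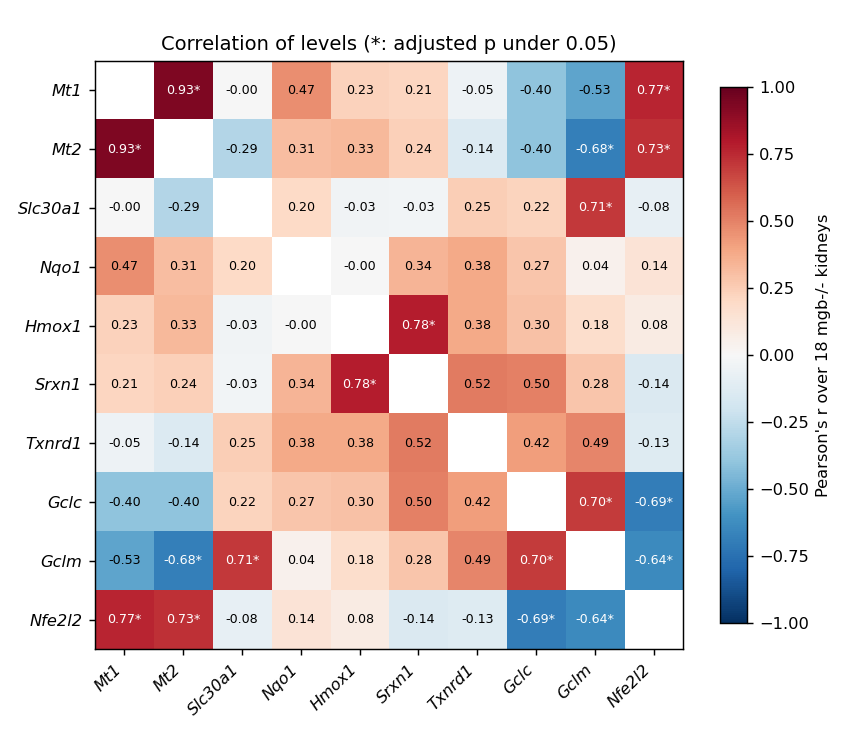
Pearson's r between the log2 levels of each pair of the 10 genes over 18 mgb-/- kidneys, red for positive and blue for negative, with a star where the permutation p adjusted over 45 pairs is under 0.05. The values highest in size are those of Mt1 and Mt2 (0.93) and of Hmox1 and Srxn1 (0.78), and Nfe2l2 is negative with Gclc and Gclm.

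The grades were compared next, to see whether the genes follow the loss of parenchyma. Against the controls, 1 of 10 genes passed in the mild kidneys, beside 6.01% of all genes (3.01% higher), and 1 in the moderate kidneys, beside 1.2% of all genes (0.643% higher). In the severe kidneys 2 passed, beside 16.1% of all genes, with 1 higher (beside 6.56%) and 1 lower (beside 9.55%). Nqo1 was the gene that passed in each grade. It rose by 0.80 in the mild (SE 0.19, adjusted p = 0.0165), 0.97 in the moderate (SE 0.21, adjusted p = 0.0294) and 0.97 in the severe kidneys (SE 0.20, adjusted p = 0.00437). The moderate call was lost in 8 of the 24 fits that left out 1 kidney (5 controls and moderate replicates 1, 3 and 4, adjusted p up to 0.126). It was also lost without the pair of kidneys with adrenal markers (0.90, adjusted p = 0.141), but Nqo1 passed with severe replicate 5 left out as well. Under scaling by the array median the Nqo1 call was lost in the mild (adjusted p = 0.0980) and moderate kidneys (adjusted p = 0.0854). Gclm passed in the severe kidneys, where it fell by 0.67 (SE 0.17, adjusted p = 0.0159); with the severe and control kidneys fitted alone its adjusted p was 0.0674. Its values in the mild and moderate kidneys were -0.42 (adjusted p = 0.138) and -0.41 (adjusted p = 0.233).

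Mt1 changed by 0.84 in the mild, 0.79 in the moderate and 0.70 in the severe kidneys, with adjusted p of 0.0618, 0.149 and 0.0816. Leaving out mild replicate 4, the kidney with adrenal markers and control-like Mt1, brought the mild value to 0.97 (adjusted p = 0.0289), and the unchanged mild value passed without moderate replicate 1 or 2 or severe replicate 5 or 6 (lowest adjusted p = 0.0315). Without the pair of kidneys with adrenal markers the moderate Mt1 value was 0.59 (adjusted p = 0.382) and the mild value passed (adjusted p = 0.0209). Without moderate replicate 2 the severe Mt1 value passed as well (adjusted p = 0.0497). Leaving out severe replicate 6 brought 4 further genes past the threshold in the severe kidneys: Mt1 (0.89, adjusted p = 0.0158), Mt2 (1.35, 0.0437), Nfe2l2 (0.38, 0.0287) and Gclc (-0.68, 0.0348). Leaving out moderate replicate 2 did so in the moderate kidneys for Mt1 (1.05, 0.0309), Hmox1 (1.45, 0.0384) and Srxn1 (0.68, 0.0282). The moderate Srxn1 value (0.60) also passed without severe replicate 5 (adjusted p = 0.0448).

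**Figure D4:**
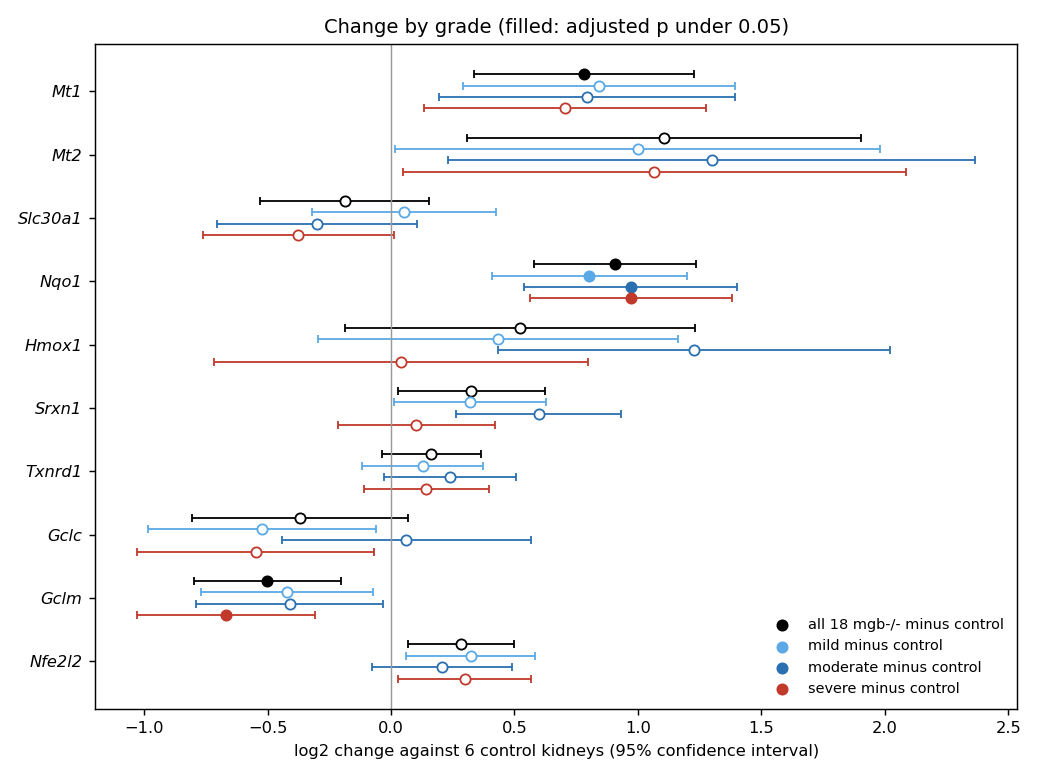
Log2 change of each gene against the 6 controls with its 95% confidence interval, for all 18 mgb-/- kidneys (black) and for the mild (light blue), moderate (dark blue) and severe (red) kidneys. Filled points passed an adjusted p under 0.05; Nqo1 is filled in each grade and Gclm in the severe kidneys and over all.

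Directly between grades, 0 of 10 genes passed in limma in each of the 3 comparisons, where 0.586% (severe against mild), 0.00715% (severe against moderate) and 0% (moderate against mild) of all genes passed. At an unadjusted p under 0.05, 1, 3 and 2 of the 10 did so, beside 3104, 2899 and 1870 of all 27984 genes. The severe minus moderate difference was -1.19 for Hmox1 (95% confidence interval -1.98 to -0.39, unadjusted p = 0.00522, adjusted p = 0.305) and -0.49 for Srxn1 (unadjusted p = 0.00573, adjusted p = 0.305). Gclc was -0.61 in severe against moderate (adjusted p = 0.405) and 0.59 in moderate against mild kidneys (adjusted p = 0.632). For Nqo1 the severe minus mild difference was 0.17 (95% confidence interval -0.23 to 0.56), for Mt1 it was -0.14 (-0.69 to 0.41) and for Mt2 0.07 (-0.91 to 1.05). These intervals leave room for a difference of either sign.

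Around Nrf2, the list of its partners and repressors had 10 of 10 genes tested. Over all mgb-/- kidneys 2 rose (beside 5.34% of all genes) and 2 fell (beside 8%). The median of the list was 0.01 on the log2 scale. Maff, a small Maf protein, rose by 2.33 (SE 0.43, adjusted p = 0.00204), with 17 of 18 kidneys higher than the mean of the controls. Its level ran from -3.05 to -1.58 in the controls and averaged 0.50 ± 0.94 (SD, n = 7) in the mild kidneys. Nfe2l1, a relative of Nrf2, rose by 0.41 (adjusted p = 0.0202). Keap1 fell by 0.33 (SE 0.08, adjusted p = 0.0108) and Cul3 by 0.40 (SE 0.12, adjusted p = 0.0325), both below the control mean in 18 of 18 kidneys. Nfe2l3, singled out after its values were seen, was 2.59 higher in severe than in mild kidneys (adjusted p = 0.0394); it was well above background on 5 of 7 mild arrays and 6 of 6 severe arrays.

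Of 23 other genes listed as Nrf2 targets 22 were tested (Slc7a11 did not pass the filter). Of these 3 rose (beside 5.34% of all genes) and 5 fell (beside 8%), with a median of 0.02. The rises were in the carbonyl reductases Cbr1 (1.94, SE 0.43, adjusted p = 0.00633) and Cbr3 (0.77, adjusted p = 0.0284) and in the glutathione peroxidase Gpx2 (1.17, adjusted p = 0.0403), the last named after its value was seen. The falls with the lowest p were in the peroxiredoxin Prdx1 (-0.56, adjusted p = 0.0162), in Me1 (-0.85, adjusted p = 0.0203), which makes NADPH, and in Taldo1 of the pentose phosphate pathway (-0.33, adjusted p = 0.0358). Prdx6 (-0.30) and Blvrb (-0.28) completed the 5. Cbr1 averaged 3.47 ± 0.19 (SD, n = 6) in the controls and 5.87 ± 0.84 (SD, n = 7) in the mild kidneys. Gpx2 averaged -3.36 in the controls, -2.88 in the mild, -2.03 in the moderate and -1.52 in the severe kidneys. In the severe kidneys 2 of the 22 rose (beside 6.56% of all genes) and 7 fell (beside 9.55%).

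Of 18 other antioxidant enzymes tested, 3 fell and 0 rose, beside 8% of all genes lower and 5.34% higher. A negative difference was found for 16 of 18, where 48.8% of all genes had one, and the median was -0.31, where that of all genes was 0.01. The 3 were the superoxide dismutase Sod1 (-0.49, adjusted p = 0.0281), Ggt1 (-0.87, adjusted p = 0.0356), which breaks down glutathione at the tubule surface, and the glutathione synthetase Gss (-0.68, adjusted p = 0.0362). The summed proximal tubule markers, given above, ranged lower in the severe kidneys than in the controls, and their part in these values was not tested. Of 8 iron and heme genes 0 passed in limma, beside 13.3% of all genes. An unadjusted p under 0.05 was found for 3 of the 8, and for 8109 of 27984 genes in all. The 2 with the lowest p were the iron exporter Slc40a1 (-0.26, adjusted p = 0.0738) and Hamp, the gene of the iron hormone hepcidin (adjusted p = 0.0875), which was not well above background on any control or severe array. In the severe kidneys 2 of the 8 fell, beside 9.55% of all genes, and Slc40a1 was among them (-0.43, adjusted p = 0.00998).

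Among zinc transporters and metal genes 23 of 26 were tested. Of these 2 rose (beside 5.34% of all genes) and 5 fell (beside 8%), with a median of -0.11. Mtf1 (-0.20, adjusted p = 0.118) and the other metallothionein genes Mt3 (0.01, adjusted p = 0.975) and Mt4 (-0.04, adjusted p = 0.938) did not pass. Slc39a4, a zinc importer, rose by 1.82 (SE 0.59, adjusted p = 0.0437). Its level averaged -2.07 in the controls, -1.43 in the mild, -0.33 in the moderate and 1.18 in the severe kidneys, and it was 2.61 higher in severe than in mild kidneys (adjusted p = 0.00781). Slc39a11 (-0.71, adjusted p = 0.00953), Slc39a3 (-0.36, adjusted p = 0.00957), Slc30a6 (-0.39, adjusted p = 0.0160) and Slc30a2 (-0.88, adjusted p = 0.0282), which belong to the zinc transporter families, fell, as did Slc39a8 (-0.53), and Slc39a6 rose (0.49). Summed urothelial markers (7 genes, all well above background on all arrays) ran from 71.7 to 236.3 in the severe kidneys, 13.98 to 53.9 in the moderate, 4.96 to 58.7 in the mild and 6.35 to 19.1 in the controls. In the severe kidneys 7 of 7 of these markers rose, beside 6.56% of all genes. Their part in the Slc39a4 and Gpx2 levels was not tested.

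**Figure D5:**
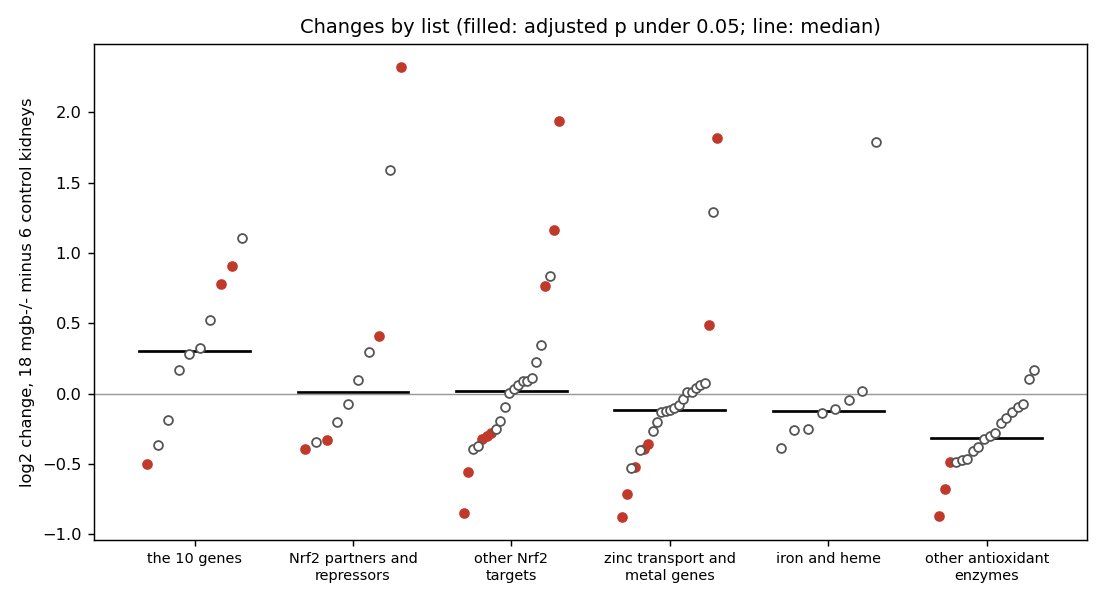
Log2 change between 18 mgb-/- and 6 control kidneys for each gene of 6 lists, sorted within a list, with filled points for an adjusted p under 0.05 and a line at the median of the list. The 10 genes have a median of 0.30 and the other antioxidant enzymes of -0.31.

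Over all 24 kidneys the gene most like Mt1 among 27658 was Mt2 (r = 0.94), followed by a transcript with no name in the RefSeq table (0.92) and Eppk1 (0.92). The same unnamed transcript had r = 0.99 with Mt2, ahead of Mt1 (0.94) and Akap12 (0.92). Hmox1 was most like Bmp6 (0.89), Bco1 (0.86) and Dync1i2 (0.85), and Nqo1 was most like Prap1 (0.89), Radx (0.88) and Cdo1 (0.87). These are descriptions over kidneys that share group and slide, and no test was made.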

How the data were processed

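The authors deposited the scanner output of Agilent Feature Extraction 10.10 for each array (version from the submitters' processing notes). Its processed signal is a background-subtracted intensity, not normalized between arrays. They also deposited a table of whole-number intensities normalized by a method not given in the sources used here, with 934 missing values, which served as an alternative. Of 55681 probes, 26762 were named through RefSeq accessions (GRCm38.p6) and the second Mt1 probe through the gene list of the study, which holds genes it called changed. The array annotation uses another build, so no coordinates of probes are given.

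The processed signal was converted to log2, the 75th percentile of the array was subtracted, outlier spots were dropped and the spots of a probe were averaged. Kept were 38866 probes that stood well above background on 5 or more arrays, and the brightest probe stood for each of 27984 genes, of which 325 lacked a value on at least 1 array. limma 3.58.1 was fitted to all genes, with 2 groups for mgb-/- against control and 4 groups otherwise, with Benjamini-Hochberg adjustment across the 27984 genes. Gene lists were described by counts and medians only. Permutations of correlations numbered 100000, were two-sided, pooled the grades and were adjusted over 45 pairs. The number of arrays limits the precision. The fit was tested on simulated data. The members and lists were chosen with earlier results of these data known. All 10 members are named; in each list up to 5 genes that passed in mgb-/- against control kidneys with the lowest p are named, or the 2 with the lowest p where none passed, with the few other genes needed to complete a short count; for Mt1, Mt2, Hmox1 and Nqo1 the 3 genes with the highest r are named. Alternatives were quantile, median and normexp scaling, the authors' table, other filters, the mean of probes, slide or replicate blocks, array weights, the compared groups alone and leaving out each kidney. The normexp alternative (offset 50) used the median signal and background.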

Additional observations from a re-analysis of the deposited data

Results flagged for a closer look

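Within 40 groups of 5 to 7 kidneys (4 groups for each of 10 genes), 3 held a kidney set apart from the rest by a wide gap, and chance gives about 1 in 20. Mild replicate 4 had the lowest Mt1 level of the 7 mild kidneys, 6.49, where the next was 7.17, and the highest Gclc level, 4.97, where the next was 4.16. Its adrenal markers summed to 189.0, and their part in these levels was not tested. Severe replicate 5 had the lowest Slc30a1 level of the 6 severe kidneys, 1.36, where the next was 2.46. Its proximal tubule markers summed to 259.2, the lowest of all kidneys, and their part in this level was not tested.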

How the results depend on the processing

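In mgb-/- against control kidneys 3 of 10 genes passed. The number was 6 after quantile normalization, 7 in the authors' table, 7 with array quality weights, 0 when a 2-fold change was also required, and 2 to 5 when a kidney was left out. In the mild kidneys 1 passed, with 0 under median scaling, 2 in the authors' table, 2 with probes detected on all arrays, 2 with the mean of a gene's probes, 7 with weights, 6 with the compared groups alone, 0 at 2-fold and 1 to 2 when a kidney was left out. In the moderate kidneys 1 passed, with 2 after quantile normalization, 0 under median scaling, 2 in the authors' table, 2 with probes detected on all arrays, 2 with the mean of probes, 6 with weights, 0 at 2-fold and 0 to 4 when a kidney was left out. In the severe kidneys 2 passed, with 4 in the authors' table, 4 with weights, 1 with the compared groups alone, 0 at 2-fold and 2 to 6 when a kidney was left out. Between severe and moderate kidneys 0 passed, and 2 with weights (Hmox1 and Srxn1). Between the grades 0 passed whichever kidney was left out. Alternatives added after seeing the data left out the 2 kidneys with adrenal markers, which gave 2 in the mild and 0 in the moderate kidneys. Leaving out severe replicate 5 as well gave 3 in the mild and 1 in the moderate kidneys. Of 45 correlations 9 passed, 5 without the 2 farthest kidneys, 11 with slide means subtracted, 9 without the kidneys with adrenal markers and 5 without severe replicate 5 as well. The difference between the Mt1 probes ran from 1.00 to 1.25 when a kidney was left out. The gene gained with the mean of probes in the mild and moderate kidneys was Mt1, whose mean takes in the second probe. The causes were not tested. With the replicate number as a block 1 gene passed over all mgb-/- kidneys and 0 in the moderate kidneys; Mt1 then had an adjusted p of 0.0505 and Gclm of 0.0664. The samples share only a number: over 33 same-numbered pairs the correlation of deviations had a median of 0.005, 10 pairs were over 0.1, and 6 kidneys correlated best with their own number. Of the 10 genes in mgb-/- against control kidneys none changed direction under an alternative. The number of arrays limits the precision.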
